A study of Mus musculus with 9 samples.

Results

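The comparison described here sets organoids grown from mammary stem cells (MaSC organoids) against freshly isolated luminal differentiated (LD) cells of the mouse mammary gland, across 18194 genes. It uses 6 of the 9 arrays of the series, chosen by their titles alone: 3 arrays of MaSC organoids and 3 arrays of LD cells, lettered A, B and C in each group. LD cells were sorted by flow cytometry as EpCAM-high, CD49f-low and CD61-negative cells from glands of virgin C57BL/6J mice, and their RNA was taken without culture. The MaSC-enriched fraction, EpCAM-low, CD49f-high and CD61-positive, came from the same kind of gland and was grown into organoids in Matrigel, in a medium that held R-spondin 1 (which enhances Wnt signals), noggin (which blocks BMPs), bFGF with heparin, and EGF. Neither group carried a transgene. The remaining 3 arrays, of organoids from LD cells that had been converted with a doxycycline-inducible YAP vector (yMaSC organoids), entered the fit for its estimate of the spread and are named only where their values are set beside the others. The paper describes plating of sorted cells on collagen in a medium with serum, and growth as colonies before the transfer to organoid conditions. LD cells, by contrast, came straight from isolation and sorting. The groups thus differ in cell of origin, in culture and in recent handling, and these cannot be told apart here. The organoids grow out of an enriched fraction, so an array of organoids measures the progeny of the sorted cells and not the stem cells themselves. The sources used here do not say whether glands of several mice were pooled for an array.

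The mammary epithelium has an inner luminal layer, whose differentiated cells sense hormones or secrete milk, and an outer basal layer, which contracts and contains the cells that can regrow a ductal tree. A cell that is dividing in a gel, a cell that secretes and a cell just taken out of its tissue use different receptors, organelles and metabolic routes, and most of the genes that serve these functions are not lineage markers. The account that follows therefore goes by function: single genes that were close to silent in one group, then organelles and complexes, metabolism, signalling, and genes of which little is known.

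Values are log2 intensities of the Affymetrix Mouse430_2 array, so a difference of 1 is 2-fold. The genes of an array had a lower quartile between 3.86 and 4.05 and a median between 6.03 and 6.42. Differences are MaSC organoids minus LD cells, and each adjusted p is that of limma, corrected over all genes. Pearson's r across genes was 0.978 to 0.991 among LD arrays, 0.984 to 0.996 among MaSC organoid arrays and 0.919 to 0.936 between the groups. One array in each group stood apart: LD B had 544 genes more than 1 log2 from both other LD arrays (91 for A and 88 for C), and organoid C had 496 (25 for A and 90 for B). LD B had a mean milk marker level of 7.48 against 12.04 and 12.12, and endothelial markers at 6.0 against 4.48 and 4.62. Organoid C had basal markers at 8.86 against 7.43 and 7.44. The 5' probe set for 18S rRNA read 13.35, 13.37 and 13.51 in LD cells and 14.32, 14.27 and 13.71 in organoids A, B and C. Luminal epithelial markers had means of 11.74 to 12.01 in LD cells and 11.45 to 11.60 in organoids, and of 14 such markers 6 passed as lower and 2 as higher. Hormone-sensing markers had means of 9.44 to 10.50 and 6.75 to 8.44. Of 15 basal markers 7 passed as higher in organoids (46.7%, against 22.1% of all genes), 1 as lower and 7 had no call. Leukocyte markers were present in the LD arrays, at means of 6.60, 6.57 and 6.11 against 4.66, 4.66 and 4.77 in organoids, and 30 of 45 passed as lower. In whole samples such as these, fewer cells of a type and less RNA per cell cannot be told apart.

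At an adjusted p under 0.05, 4028 genes were higher in MaSC organoids (22.1% of all genes) and 2762 were lower (15.2%), so 37.3% passed in either direction. With a difference of at least 2-fold the counts were 2037 (11.2%) and 1218 (6.69%). The 3 arrays of one group lay wholly above or below those of the other in 8713 genes (47.9%). The median difference over all genes was -0.02. When every array was shifted to the same median, the median difference became -0.27 and the split changed to 3001 higher and 6992 lower, so counts of lower genes below are read against this. A group of genes is described by how many of its measured members passed in each direction, beside the shares of all genes just given, and by its median difference.

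**Figure D1:**
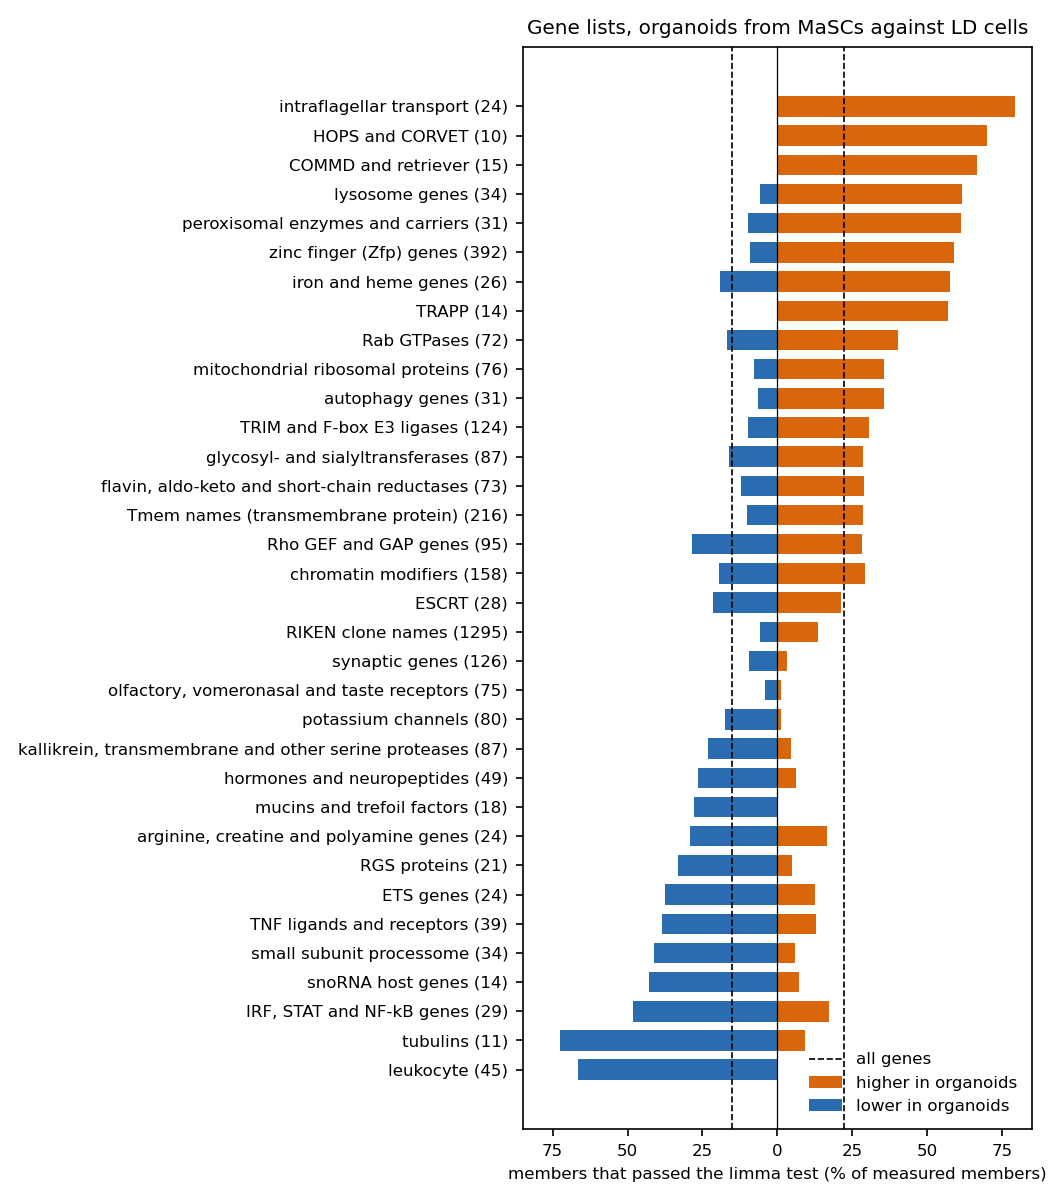
Share of measured members (%) that passed the limma test as higher (orange, to the right) or lower (blue, to the left) in MaSC organoids than in LD cells, for 34 lists with the number of measured members in brackets. Dashed lines mark the shares over all genes, 22.1% higher and 15.2% lower. Intraflagellar transport stands at 79.2% higher and tubulins at 72.7% lower.

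A gene was counted as switched on when it passed as higher, lay under the array's own lower quartile on all 3 LD arrays and lay above the array's own median on all 3 organoid arrays. Only 12 genes met this (0.066%), and each of them passed under every alternative tried. They included the basal factor Trp63 and the glutathione transferase Gsta3. Vcan, which encodes the matrix proteoglycan versican, read 3.51, 3.71 and 3.79 in LD cells and 8.68, 8.23 and 8.31 in organoids, a difference of 4.74 (SE 0.21, adjusted p = 2.56e-06), although its 8 probe sets ranged from -0.32 to 4.74. Cdh19, a cadherin of the neural crest and Schwann lineage, read 2.93, 3.83 and 3.22 against 7.48, 7.73 and 8.26, a 22.6-fold difference (adjusted p = 2.94e-05). In both genes the groups were far apart against the spread within each. Ttc30a1, which belongs to the machinery that carries cargo into the cilium, read 2.79, 2.61 and 2.56 against 7.29, 7.14 and 6.89 (difference 4.45, adjusted p = 2.48e-06). Myo7a encodes an unconventional myosin known from the hair cells of the inner ear and read 3.87, 3.92 and 3.59 against 7.22, 7.74 and 7.49 (difference 3.69). The other switched on genes were Orm1, for a plasma carrier protein of the acute phase (difference 4.44, with organoid C lowest at 6.79), Chst2, for an enzyme that adds sulfate to N-acetylglucosamine (3.69), Zfp74 (3.27), Cd177, a surface protein known from neutrophils (3.24), Brinp1, known from neurons (3.17), and Zfp354c (3.11). The arrays of Cd177 lay close together in each group, at 3.54, 3.47 and 3.61 in LD cells and 6.87, 6.64 and 6.83 in organoids. The count of genes switched on depended on LD B: without this array it was 23.

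**Figure D2:**
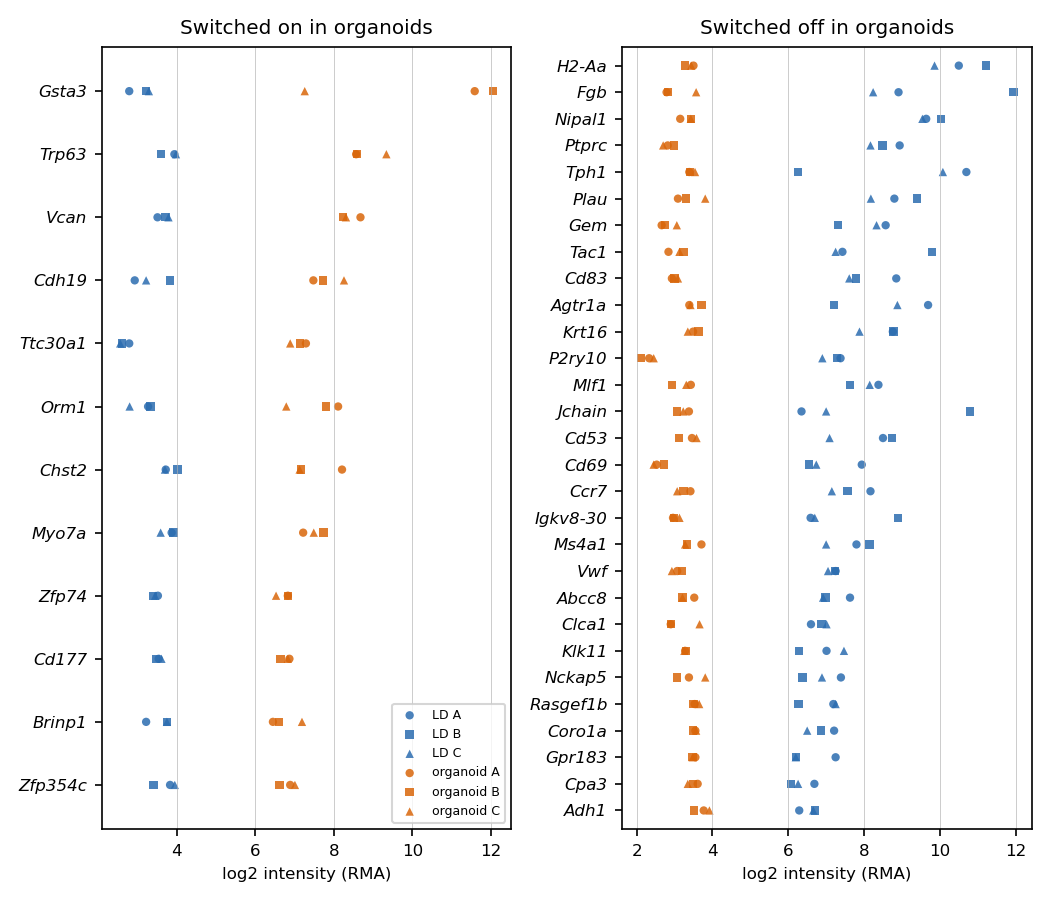
Log2 intensity (RMA) on each array of LD cells (blue) and MaSC organoids (orange) for the 12 genes switched on and the 29 genes switched off in organoids, with the letters A, B and C as circles, squares and triangles. The groups are separate for every gene shown, and the widest spread within a group is that of Gsta3 in organoids and of Fgb, Tph1 and Jchain in LD cells.

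The mirror rule gave 29 genes switched off (0.159%), and 50 when LD C was left out. They fell into genes known from leukocytes and genes of other kinds. Those known from leukocytes were H2-Aa, Ptprc, Cd83, P2ry10, Jchain, Cd53, Cd69, Ccr7, Igkv8-30, Ms4a1, Coro1a, Gpr183 and Cpa3. The 29 genes include 5 of the leukocyte markers given above, so those markers are not separate evidence. Ptprc (CD45), the common surface phosphatase of leukocytes, read 8.94, 8.49 and 8.17 in LD cells and 2.82, 2.98 and 2.70 in organoids. The part of leukocytes in the other genes was not tested. Nipal1, a magnesium transporter family gene, read 9.64, 10.03 and 9.54 in LD cells against 3.15, 3.43 and 3.43 in organoids, an 84.4-fold difference (-6.40 log2, SE 0.15, adjusted p = 2.94e-07), and its other probe set gave -5.24. Fgb, for a chain of fibrinogen, read 8.91, 11.94 and 8.24 against 2.79, 2.82 and 3.57 (difference -6.64, adjusted p = 0.000305), and was highest in LD B. Tac1, which encodes the neuropeptide substance P, read 7.43, 9.80 and 7.25 against 2.84, 3.24 and 3.13, again highest in LD B. For Tph1, the first enzyme of serotonin synthesis, the order was the reverse, with LD B lowest at 6.25 against 10.70 and 10.08, and organoids at 3.39 to 3.54 (difference -5.57, adjusted p = 0.0019). Agtr1a, an angiotensin II receptor, showed the same order, at 9.69, 7.20 and 8.88 against 3.39, 3.71 and 3.42. LD B thus set the size of several of these differences, and in each the groups remained separate.

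Vwf, for the von Willebrand factor of endothelium and platelets, read 7.25, 7.23 and 7.05 in LD cells and 3.07, 3.19 and 2.93 in organoids (difference -4.11, adjusted p = 2.94e-07). The endothelial markers given above include 1 of the 29 genes switched off, so those markers are not separate evidence. The part of endothelial cells in the difference of Vwf was not tested. Mlf1, named for a fusion in myeloid leukemia, read 8.38, 7.63 and 8.15 against 3.43, 2.93 and 3.31. Gem, a small GTPase that inhibits calcium channels, read 8.57, 7.31 and 8.33 against 2.66, 2.74 and 3.06. Their adjusted p values were 2.56e-06 and 8.37e-06. Abcc8, the sulfonylurea receptor subunit of a potassium channel, read 7.63, 6.98 and 6.92 against 3.52, 3.21 and 3.21, and Clca1, a secreted regulator of chloride channels, had a difference of -3.67. Klk11 and Plau, for secreted serine proteases, and Adh1, for an alcohol dehydrogenase, differed by -3.64, -5.39 and -2.81. Krt16 differed by -4.98. Nckap5 (-3.47) and Rasgef1b (-3.34), named after their values were seen, complete the 29.

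The largest increases outside the lineage genes were in genes of many kinds. Chl1, a cell adhesion molecule related to L1 that guides axons, read 3.19, 4.17 and 3.69 in LD cells and 9.88, 10.05 and 10.03 in organoids, a 79-fold difference (6.30 log2, SE 0.21, adjusted p = 1.01e-06), although another of its 4 probe sets gave -0.08. Car12, for a carbonic anhydrase of the cell surface, read 4.69, 5.30 and 5.51 against 10.87, 10.64 and 11.12 (difference 5.71). G0s2, an inhibitor of the triglyceride lipase, read 4.73, 5.17 and 4.0 against 10.22, 9.50 and 10.88 (difference 5.57, adjusted p = 1.38e-05). Ppp1r3c, which targets a phosphatase to glycogen, read 4.46, 4.69 and 4.37 against 9.29, 9.51 and 8.37 (4.55). All arrays of each of these genes were separate between the groups by more than 3 log2, as were those of Dram1, a lysosomal membrane protein that promotes autophagy (4.35, 4.98 and 3.74 against 9.51, 9.62 and 10.65).

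Chil1, a secreted chitinase-like protein, read 9.05, 9.43 and 10.20 in LD cells and 14.32, 14.37 and 14.47 in organoids (difference 4.83, adjusted p = 4.62e-06). Pla2g7, which breaks down platelet-activating factor, read 4.84, 4.27 and 3.88 against 8.82, 8.71 and 9.94, and Hpgd, which inactivates prostaglandins, 4.13, 2.99 and 3.52 against 7.82, 8.43 and 8.45. The probe set of Hpgd may also detect other transcripts, and its other probe set gave 1.30. Gpx2, a glutathione peroxidase, differed by 4.67, and the secretoglobin Scgb2b27 by 4.56. Pcp4, a calmodulin regulator known from Purkinje cells, and Scrg1, known from cartilage and brain, differed by 4.93 and 5.17, but their LD values spread over 5.15 to 8.01 and 4.72 to 5.96. In the 20 largest increases that the rule selects, only Kcnj15, with organoid C at 5.53 against 10.23 and 10.13, lost its call under any alternative other than the stricter threshold.

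Among the largest decreases outside the immediate-early and cytokine genes were the receptor and the enzyme of the urokinase system. Plaur, the urokinase receptor, read 11.67, 12.16 and 11.37 in LD cells and 5.71, 6.19 and 5.97 in organoids (difference -5.78, SE 0.23, adjusted p = 2.21e-06), and Plau, urokinase itself, 8.80, 9.39 and 8.18 against 3.09, 3.30 and 3.81. Plat, the tissue-type activator of plasminogen, read 8.61, 8.42 and 8.32 against 4.40, 4.25 and 4.94 (-3.92), with -0.49 at its other probe set. These 3 genes were lower on every organoid array than on any LD array. Prss22, a membrane-anchored tryptase, read 11.07, 11.33 and 10.64 against 5.53, 4.94 and 6.13. Dmkn, for the secreted epidermal protein dermokine, read 10.53, 11.05 and 10.44 against 4.91, 6.18 and 4.64. Plac8, a small cysteine-rich protein, read 11.07, 10.16 and 10.83 against 4.72, 4.48 and 5.52. The fold differences of these 3 genes were 44.6, 43.1 and 54.9.

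The zinc finger genes were shifted as a family. Their proteins carry arrays of C2H2 fingers that bind DNA, and many are repressors, with a KRAB domain that recruits silencing machinery to repeated DNA. Of 392 measured genes named Zfp, Zkscan, Zscan or Zbtb, 231 were higher in organoids (58.9% against 22.1% of all genes) and 36 lower, and 171 were higher at least 2-fold. Their median difference was 0.80. The median level of these genes was 5.92, 5.72 and 5.90 on the LD arrays and 6.92, 6.96 and 6.85 on the organoid arrays, whereas that of all genes was 6.10, 6.03 and 6.13 and then 6.29, 6.30 and 6.42. The shift did not rest on organoid C, since 221 were higher and 31 lower without it. With all arrays at a common median, 208 were higher and 71 lower, with a median of 0.55. Over all alternatives the median stayed between 0.55 and 0.83. The share that was higher was above that of all genes at each level. In the lowest tertile of mean level it was 12 of 49 (24.5% against 2.49%), in the middle one 176 of 257 (68.5% against 30.1%) and in the highest 43 of 86 (50% against 33.8%).

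**Figure D3:**
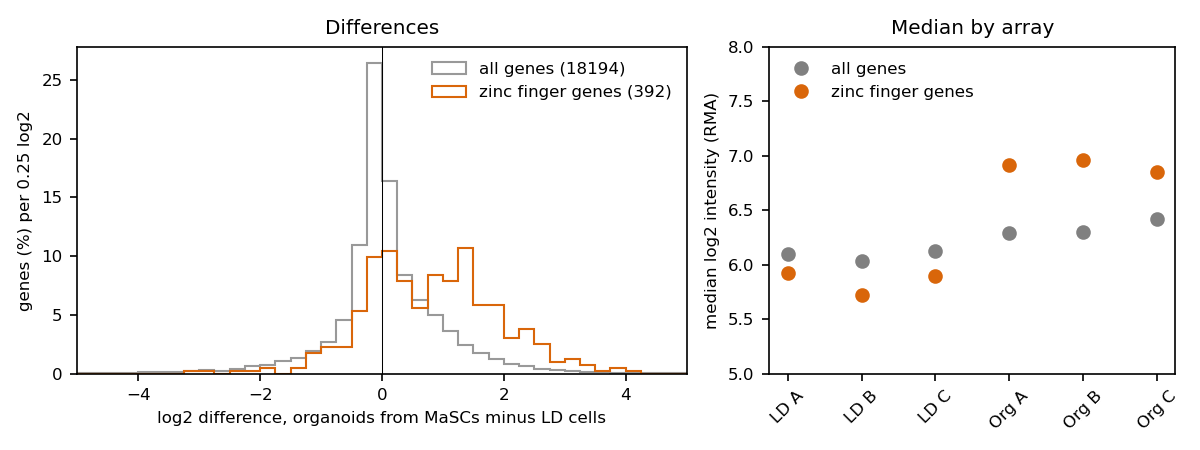
Left, share of genes (%) in steps of 0.25 log2 of the difference between MaSC organoids and LD cells, for all 18194 genes (grey) and 392 zinc finger genes (orange), drawn from -5 to 5. Right, median log2 intensity (RMA) of the same genes on each array. The zinc finger genes form another hump above a difference of 1, where 43.9% of them lie against 11.8% of all genes, and their median moves from 5.72 to 5.92 on the LD arrays to 6.85 to 6.96 on the organoid arrays.

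Some zinc finger genes lie side by side, and the shift was larger among these. Of 173 that have another measured zinc finger gene as their next protein-coding gene, 133 were higher (76.9%, median difference 1.26) and 7 lower, whereas of 214 with no such neighbor 97 were higher (45.3%, median 0.30) and 28 lower. Neighbors of this kind can be similar in sequence, and whether their probes share signal was not tested. Of the 392 genes, 26 were read from a probe set that may detect other transcripts, and 15 of those 26 were higher. By chromosome, 27 of 31 were higher on chromosome 13, 36 of 47 on chromosome 17, 51 of 89 on chromosome 7 and 8 of 22 on chromosome 4. By name, the share was 203 of 333 for Zfp genes, 7 of 10 for Zkscan, 6 of 10 for Zscan and 15 of 39 for Zbtb genes, of which 10 were lower. The Zbtb proteins have a BTB domain and no KRAB domain.

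Single members differed in how closely their arrays lay together. Zfp760 read 4.26, 4.27 and 4.0 in LD cells and 7.92, 8.04 and 8.11 in organoids (difference 3.85, SE 0.13, adjusted p = 1.01e-06). Zfp763 read 4.01, 3.14 and 3.33 against 7.48, 7.51 and 7.51 (4.01), with 0.17 at its other probe set. Zfp950 and Zfp874a had organoid values of 8.26 to 8.30 and 7.17 to 7.44, while LD B stood above the other LD arrays in both, at 5.42 and 5.13. Of the 36 lower members, 25 are named Zfp, 10 Zbtb and 1 Zscan. Zfp36, whose CCCH fingers bind messenger RNA of cytokines and speed its decay, read 12.20, 11.70 and 11.93 against 8.66, 8.94 and 8.73 (-3.17, adjusted p = 3.24e-06). Zbtb21 read 9.57, 9.69 and 9.80 against 7.44, 7.32 and 7.23 (-2.36), and Zfp703, a cofactor known from luminal breast cancer, differed by -2.20 and Zscan18 by -2.94.

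The primary cilium is an antenna of the plasma membrane that grows from a centriole in cells that are not dividing, and its parts are carried in by intraflagellar transport. The lists for this and the other complexes below were written after the values of single genes had been seen, so their counts are descriptions. Of 24 intraflagellar transport genes 19 were higher and none lower (median 0.90), of 9 ciliary motor genes 6, of 12 genes of the BBSome and its chaperones 7, and of 21 genes of the transition zone 9, with 1 lower. The mean of the intraflagellar transport genes was 6.64, 6.92 and 6.85 on the LD arrays and 7.98, 7.97 and 7.83 on the organoid arrays. Without organoid C 17 of the 24 were higher, and at a common median 15 were higher and 2 lower. Motile cilium genes, a list of 63 for the dyneins and other parts that make cilia beat, had 6 higher and 7 lower (median -0.11). Their shares were 9.52% and 11.1%, against 22.1% and 15.2% of all genes. Many of them were too dim for a call to be likely: 27 lay under the lower quartile on all 3 LD arrays and 30 on all 3 organoid arrays.

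The binding letters of the RFX factors that are known to drive ciliary genes, the X-box, written GTTNCC, 2 free bases and the reverse complement GGNAAC, and so read the same on both strands, were searched in promoters of RefSeq (GRCm38.p6; 250 bases before to 50 after each gene start). They were present in 6 of 68 promoters of the ciliary genes (8.82%), against 0.451% of all 32851 promoters and 0.547% of those of measured genes. In the 4 genes shown here the match lies before the gene start. Of these, Ttc26 was higher, and Bbs7, Mks1 and Ttc30a2 had no call (differences 0.31, 0.17 and 0.39). Ciliary genes with and without a match were not compared by call. The capitals mark the X-box, and the strand is that of the gene.
Ttc26, chr6:38381469-38381523, plus strand: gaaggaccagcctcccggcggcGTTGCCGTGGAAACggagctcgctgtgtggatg
Bbs7, chr3:36613475-36613532, minus strand: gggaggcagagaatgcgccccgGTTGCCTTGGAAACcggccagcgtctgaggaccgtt
Ttc30a2, chr2:75978180-75978225, minus strand: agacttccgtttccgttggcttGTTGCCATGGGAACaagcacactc
Mks1, chr11:87853169-87853214, plus strand: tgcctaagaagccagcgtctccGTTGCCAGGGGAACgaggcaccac

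Within intraflagellar transport the differences ran from 4.45 for Ttc30a1 to -0.83 for Hspb11, which did not pass. Ttc30b, a close relative of Ttc30a1, read 5.12, 4.80 and 5.28 in LD cells and 8.93, 8.90 and 8.17 in organoids (difference 3.60, adjusted p = 6.49e-05). The Ttc30 genes are nearly identical to each other, so their probe sets may share signal. Ttc26, shown above, read 5.18, 6.24 and 5.42 against 7.82, 7.65 and 7.08 (1.90, adjusted p = 0.00189), and Ift80 read 6.09, 6.72 and 6.35 against 8.49, 8.14 and 8.15 (1.87, adjusted p = 0.000612). Ift88, a core subunit, stood at 7.11 on all 3 LD arrays and at 7.02, 7.12 and 7.18 in organoids, and its difference did not pass (adjusted p = 0.982). In the BBSome group Bbs12, a chaperone-like subunit, read 3.93, 4.89 and 4.09 against 6.79, 6.74 and 6.64 (2.42, adjusted p = 6.41e-05), and Bbs1 and Bbs10 differed by 2.07 and 1.95.

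**Figure D4:**
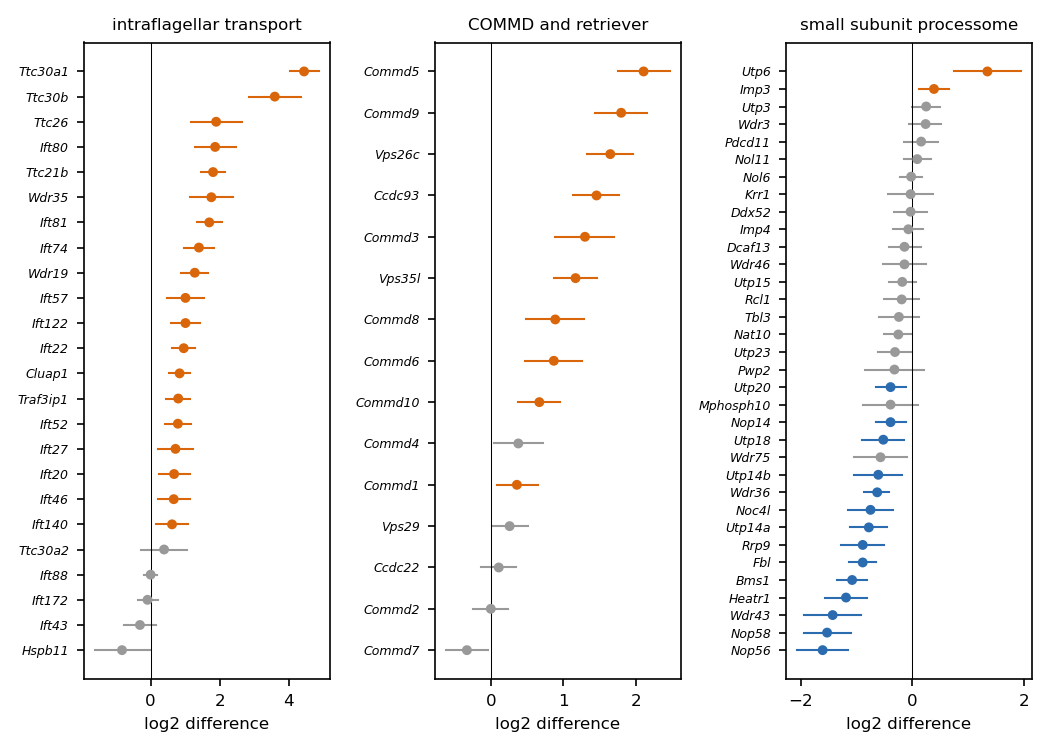
Log2 difference (MaSC organoids minus LD cells) with its unadjusted 95% interval for each measured member of intraflagellar transport, of the COMMD and retriever complexes and of the small subunit processome; orange passed as higher, blue as lower and grey did not pass. Of the members 19 of 24, 10 of 15 and 2 of 34 were higher, and 0, 0 and 14 were lower.

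Genes of endosomal sorting were higher in the organoids more often than lower in each complex listed, with one exception. COMMD proteins and retriever return receptors from endosomes to the cell surface, and 10 of their 15 genes were higher and none lower (median 0.87). HOPS and CORVET tether endosomes and lysosomes for fusion, with 7 of 10 higher and none lower. TRAPP, which tethers vesicles at the Golgi, had 8 of 14 higher and none lower, and retromer with its sorting nexins 6 of 9 higher and 1 lower. ESCRT, which buds vesicles into the endosome, had 6 of 28 higher and 6 lower (median -0.06), close to the shares of all genes. Commd5 read 6.34, 5.75 and 6.21 in LD cells and 8.03, 8.31 and 8.28 in organoids (difference 2.11, adjusted p = 2.46e-05). The ESCRT-I subunit Vps37b went the other way, at 9.58, 9.84 and 9.29 against 5.96, 5.95 and 6.31 (-3.50, adjusted p = 1.85e-05). Of 72 Rab GTPase genes 29 were higher and 12 lower (median 0.27), or 21 and 19 at a common median. The neuronal form Rab6b read 3.29, 4.87 and 3.59 against 7.75, 8.20 and 6.78, though another of its 4 probe sets gave 0.20.

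Of 34 lysosome genes 21 were higher and 2 lower (median 0.64), 19 and 1 without organoid C, and 16 and 4 at a common median. Ctsd, the aspartic protease cathepsin D, read 11.44, 11.48 and 11.68 in LD cells and 13.05, 12.92 and 12.84 in organoids (difference 1.40, SE 0.17, adjusted p = 0.00029). Hexa, the enzyme lacking in Tay-Sachs disease, read 7.45, 8.25 and 7.41 against 9.24, 9.63 and 9.63 (1.80), and Cln3, the membrane protein lacking in juvenile Batten disease, 6.81, 6.19 and 6.88 against 8.33, 8.46 and 7.90 (1.60, adjusted p = 0.00203). The groups did not overlap in any of these. Manba, for lysosomal mannosidase, was lower (-1.19), as was Cd68 (-1.93, adjusted p = 0.0494), a macrophage protein that lost its call under several alternatives. Autophagy genes had 11 of 31 higher and 2 lower, or 7 and 6 at a common median. Sqstm1, the cargo receptor p62, was 1 of the 2, at 12.42, 12.59 and 12.20 against 10.98, 11.29 and 10.61.

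The CLEAR letters TCACGTGA, bound by TFEB and its relatives and read alike on both strands, contain the general E-box CACGTG. They were present in 4 of 36 promoters of the lysosome genes (11.1%), against 0.974% of all promoters and 1.37% of those of measured genes. All 4 are shown, with the letters in capitals, from RefSeq on GRCm38.p6. Ctsd, Cln3 and Mcoln1, a lysosomal calcium channel gene, were higher in organoids, Mcoln1 by 0.60 (adjusted p = 0.0131) at a probe set that may detect other transcripts, and Ctsa had no call (0.26). Ctsa and Mcoln1 were chosen for the motif after their values were seen.
Ctsd, chr7:142387897-142387948, minus strand: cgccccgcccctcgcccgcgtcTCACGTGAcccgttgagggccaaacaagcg
Cln3, chr7:126583329-126583380, minus strand: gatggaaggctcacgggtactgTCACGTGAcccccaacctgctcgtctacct
Mcoln1, chr8:3500451-3500502, plus strand: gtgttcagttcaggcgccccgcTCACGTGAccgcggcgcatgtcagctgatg
Ctsa, chr2:164833738-164833772, plus strand: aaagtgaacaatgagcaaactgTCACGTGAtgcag

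The peroxisome, which shortens very long and branched fatty acids and breaks down peroxide, had a higher share of raised genes than all genes did. Of 31 genes for its enzymes and carriers 19 were higher and 3 lower (median 0.81), and of 14 peroxins, which build the organelle, 8 were higher and none lower. Pipox, which oxidizes sarcosine and pipecolic acid, read 3.72, 3.46 and 4.80 in LD cells and 9.49, 7.90 and 9.03 in organoids, a 28.1-fold difference (4.81, SE 0.55, adjusted p = 0.000211). Nudt12, a hydrolase of NADH, read 4.19, 4.49 and 4.58 against 8.26, 7.93 and 7.57 (3.50, adjusted p = 2.45e-05). These were the members with the largest differences. Acox2, an oxidase of bile acid intermediates, differed by 2.58 and Amacr, a racemase of branched fatty acids, by 2.25, whereas Phyh, which starts the breakdown of phytanic acid, differed by -1.74. Crot, a carnitine transferase, differed by 2.43 at the probe set used and by -0.37 at another.

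Of 87 glycosyl- and sialyltransferase genes, for enzymes that build sugar chains, 25 were higher and 14 lower (28.7% and 16.1%, median -0.05), near the shares of all genes, and at a common median 20 and 35. Single members differed widely. B4galnt2, which makes the Sd(a) blood group sugar, read 3.84, 4.10 and 4.49 in LD cells and 10.82, 10.60 and 9.39 in organoids, a 69.9-fold difference (adjusted p = 1.75e-05), with -0.02 at another of its 4 probe sets. Fut9, which makes the Lewis X sugar, known from stem cells as SSEA-1, read 3.71, 4.19 and 4.54 against 10.45, 9.67 and 8.59 (5.42, adjusted p = 0.000271). Ugt8a, which makes galactosylceramide, the lipid of myelin, read 3.55, 4.09 and 4.95 against 9.35, 8.99 and 7.49. In all 3 organoid C was the lowest organoid array and still above every LD array. B4galt6, which makes lactosylceramide, was even, at 5.97, 6.25 and 6.68 against 10.26, 9.83 and 9.98, and its 4 probe sets gave 3.03 to 3.72. St8sia4, for polysialic acid, and B3gnt5, which starts lacto-series glycolipids, differed by -3.08 and -2.76.

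Sulfation genes had 11 of 51 members higher (21.6%, close to the 22.1% of all genes) and 5 lower. Hs3st3b1, which adds a rare sulfate to heparan sulfate, read 4.73, 4.45 and 4.65 against 8.91, 8.89 and 7.34 (difference 3.77, adjusted p = 0.000404), and Chst2 was among the genes switched on. Slc26a2, the carrier that brings sulfate into the cell, read 6.21, 5.84 and 6.09 against 9.22, 8.90 and 9.69, a 9.34-fold difference. Of 36 proteoglycan core protein genes 5 were higher and 6 lower. Versican, named above, was one of those that were higher, while Srgn and Lum, for serglycin of leukocytes and lumican of stroma, differed by -3.35 and -2.59.

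Iron and heme genes were higher in 15 of 26 and lower in 5 (median 0.83), with 13 and 6 without organoid C. Cp, ceruloplasmin, the copper ferroxidase that lets iron leave cells, read 10.87, 12.57 and 10.94 in LD cells and 13.59, 13.96 and 13.45 in organoids (difference 2.21, adjusted p = 0.00259), and all its 8 probe sets gave 1.89 to 3.01. The iron exporter ferroportin, Slc40a1, read 6.30, 6.76 and 5.99 against 7.42, 7.48 and 7.73 (1.19), and the storage subunit Fth1 differed by 1.22 at a probe set that may detect other transcripts. On the other side Heph, another ferroxidase, differed by -2.36, the ferrireductase Steap1 by -2.50 (at a probe set that may detect other transcripts) and Hmox1, which breaks down heme, by -1.92, at 8.38, 9.68 and 8.41 against 7.36, 7.35 and 6.01. Slc39a8, a carrier of zinc, manganese and iron, read 5.07, 5.82 and 4.47 against 10.86, 10.20 and 8.90, the largest difference among 32 metal carrier genes (4.87).

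Genes that the factor NRF2 is known to activate did not move as one. Of 18 measured, 5 were higher and 9 lower (median -0.32). Nqo1, the quinone reductase used as its standard readout, was higher, at 5.94, 8.23 and 7.11 against 10.29, 10.45 and 10.46 (3.31, adjusted p = 0.000609), with an even level in organoids and a wide one in LD cells. Srxn1, which repairs peroxiredoxins (-2.19, at a probe set that may detect other transcripts), Osgin1 (-2.13) and the exporter Abcc3 (-3.15) were lower. Of the 24 hypoxia targets 8 were higher and 3 lower. Car9, a carbonic anhydrase, differed by 3.20, the mitophagy receptor Bnip3 by 2.59 and Pdk1 by 2.03, but Pfkfb3, which speeds glycolysis, by -4.15.

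Of 37 phospholipase and lipoxygenase genes, whose enzymes serve the making of lipid mediators, 8 were higher and 7 lower. Pla2g4a, the cytosolic phospholipase that frees arachidonic acid, read 7.13, 8.87 and 6.64 in LD cells and 10.89, 10.78 and 10.90 in organoids (difference 3.31, adjusted p = 0.000754). Ptges, the last enzyme of prostaglandin E synthesis, read 9.82, 10.14 and 9.93 against 7.77, 8.27 and 7.78 (-2.02, adjusted p = 2.46e-05), and the inactivating Hpgd was higher, as given above. Alox15, a lipoxygenase, differed by -2.38.

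Genes of 1-carbon and polyamine metabolism had members in both directions. Of 31 serine, folate and nucleotide synthesis genes 11 were higher and 5 lower (35.5% and 16.1%), or 6 and 5 without organoid C. Aldh1l2, which oxidizes formyl-folate in mitochondria, read 4.28, 4.42 and 4.54 against 9.44, 8.48 and 9.43, a 26.1-fold difference (adjusted p = 4.69e-06). Phgdh, the first enzyme of serine synthesis, read 10.12, 9.69 and 10.13 against 6.90, 7.01 and 8.42 (-2.54) at a probe set that may detect other transcripts, and Mthfd2 differed by -1.30. Odc1, the first enzyme of polyamine synthesis, was even within groups, at 11.31, 11.16 and 11.36 against 9.24, 9.02 and 9.24 (-2.11, adjusted p = 1.82e-05). Arg1, arginase 1, read 10.25, 9.43 and 10.06 against 5.58, 7.03 and 5.36, and Arg2 differed by -2.16. Of the 24 arginine, creatine and polyamine genes 4 were higher and 7 lower.

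Ribosome assembly and tubulin genes were lower more often than higher. The small subunit processome folds the precursor of ribosomal RNA in the nucleolus, and 14 of its 34 genes were lower and 2 higher (41.2% lower against 15.2% of all genes, median -0.32). Nop58, a core protein of box C/D snoRNPs, read 10.46, 11.07 and 10.55 in LD cells and 9.13, 9.01 and 9.36 in organoids (difference -1.53, adjusted p = 0.00031), and its partner Nop56 differed by -1.61 at a probe set that may detect other transcripts. Utp6 went the other way, at 7.28, 7.84 and 7.43 against 9.02, 9.06 and 8.53. Host genes of snoRNAs had 6 of 14 lower and 1 higher, with Snhg17 at -1.94. The array's control probe sets for 18S rRNA read higher in organoids A and B than in LD cells, and in organoid C by less. Values of the 5' probe set are given above. Whether these probe sets follow the amount of rRNA in the cells was not tested. Cytosolic ribosomal protein genes had 7 of 56 lower and 1 higher, and the 1 was Rps6kl1, which is named like a kinase and not a ribosomal protein. Mitochondrial ribosomal protein genes had 27 of 76 higher and 6 lower, which became 15 and 16 at a common median.

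Tubulins, the subunits of microtubules, had 8 of 11 genes lower and 1 higher (median -1.23). Their mean was 9.27, 9.40 and 9.13 on the LD arrays and 7.85, 8.09 and 7.94 on the organoid arrays. Tubb6 read 10.39, 11.77 and 10.72 against 6.62, 7.09 and 7.40 (difference -3.92, adjusted p = 7.1e-05), with -0.04 at its other probe set, and Tuba8 read 8.96, 9.70 and 8.27 against 6.17, 5.45 and 6.46 (-2.95). Tubulin genes are similar in sequence and their probe sets may share signal. The kinesin heavy chain Kif5c, a motor of neurons, read 9.54, 10.22 and 8.74 against 6.31, 4.92 and 6.56 (-3.57).

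The IRF, STAT and NF-kB factors carry signals of cytokines and infection to the nucleus. Of their 29 genes 14 were lower and 5 higher (48.3% lower against 15.2% of all genes, median -0.56), and 15 and 4 without organoid C. Rel, the subunit c-Rel known from lymphocytes, read 8.60, 8.46 and 8.66 in LD cells and 5.69, 5.74 and 4.86 in organoids (difference -3.14, adjusted p = 3.79e-05). Nfkbiz, an inducible nuclear cofactor of NF-kB, read 12.28, 12.04 and 11.95 against 9.00, 8.69 and 9.61 (-2.99), and Nfkb2, chosen after its values were seen, 9.16, 9.40 and 9.03 against 6.99, 7.16 and 6.86. The leukocyte markers, which were lower as well, had means of 6.11 to 6.60 in LD cells and 4.66 to 4.77 in organoids, and their part in these differences was not tested. The largest increase in the list was that of Ikbip (3.33), which is named for an interaction with the IKK kinase and is no NF-kB factor. Of 39 TNF ligand and receptor genes 15 were lower and 5 higher (38.5% lower), or 13 and 3 without organoid C. Tnfrsf12a, the TWEAK receptor, read 12.26, 12.96 and 12.49 against 10.09, 10.34 and 9.63 (-2.55, adjusted p = 7.72e-05), and Tnf itself 8.98, 9.55 and 9.45 against 7.40, 7.64 and 7.74 (-1.73).

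The ETS factors, which act below ERK and in blood and epithelial lineages, had 9 of 24 lower and 3 higher (median -0.32). Of the 3 higher ones Etv5, a known target and effector of FGF signals, read 6.21, 5.54 and 6.41 in LD cells and 10.09, 10.10 and 10.53 in organoids, an 18.2-fold difference (adjusted p = 1.22e-05), with 4.04 to 4.19 at its 3 probe sets. Elf5, the factor of alveolar fate, read 9.01, 8.43 and 9.74 against 11.66, 12.18 and 11.68 (2.78). Fli1, known from endothelial and blood cells, was lower, at 5.88, 5.75 and 4.55 against 2.42, 2.36 and 2.49, and Ets2 differed by -2.48. RGS proteins, which switch off G protein signals, had 7 of 21 lower and 1 higher, with Rgs1 at -3.18 and Rgs2 at -1.65.

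Among serine proteases, mucins, and S100 and annexin genes, more members were lower than higher, and most had no call. Of 87 serine protease genes 20 were lower and 4 higher, and 16 and 2 without organoid C. Of 18 mucins and trefoil factors 5 were lower and none higher. Muc4, a membrane mucin, read 7.91, 5.25 and 7.19 in LD cells and 3.06, 3.07 and 3.22 in organoids, so that LD B was closest to the organoids. Of 26 S100 and annexin genes 8 were lower and 3 higher. Anxa1, an anti-inflammatory annexin, was even, at 13.69, 13.83 and 13.61 against 12.38, 12.44 and 12.17 (-1.38, adjusted p = 8.78e-05), and its other probe set gave -4.48. The shares of lower genes were 23% for the proteases, 27.8% for the mucins and 30.8% for the S100 and annexin genes, against 15.2% of all genes. Tetraspanins, membrane proteins of the cell surface, had 10 of 28 higher and 4 lower.

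The AP-1 letters TGANTCA, the same on both strands, were counted in promoters because several of the lower genes above are known AP-1 targets. They were present in 65 of 424 promoters of genes lower at least 4-fold (15.3%, 300 genes), in 27 of 488 promoters of genes higher at least 4-fold (5.53%), and in 7.81% of all promoters or 6.38% of those of measured genes. The motif was thus chosen after the values were seen, and known targets among the lower genes can be part of the set counted. These shares are therefore descriptions and no separate evidence on AP-1. A gene with several starts is counted once for each of its promoters. The windows of 4 genes named in this account that were lower in organoids are shown, from RefSeq on GRCm38.p6, with the letters in capitals. A match is a stretch of letters and was not tested for binding.
Plaur, chr7:24462392-24462442, plus strand: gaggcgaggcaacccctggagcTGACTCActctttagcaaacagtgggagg
Fgb, chr3:83050008-83050058, minus strand: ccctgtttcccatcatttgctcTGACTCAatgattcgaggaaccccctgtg
Fam107b, chr2:3713400-3713450, plus strand: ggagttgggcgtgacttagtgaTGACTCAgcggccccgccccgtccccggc
Dmkn, chr7:30763645-30763695, plus strand: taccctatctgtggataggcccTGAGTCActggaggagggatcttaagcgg

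Hormone and neuropeptide genes had 13 of 49 lower and 3 higher. Edn1, the vasoconstrictor endothelin 1, read 9.39, 9.96 and 9.37 in LD cells and 5.39, 5.65 and 4.85 in organoids, a 19.4-fold difference (-4.28, adjusted p = 7.38e-06), and Cck, cholecystokinin, differed by -2.82. Both a subunit and an inhibitor of activin were higher. Inhbb, the beta B subunit of activin and inhibin, read 10.95, 10.28 and 10.13 against 13.36, 13.18 and 12.98 (2.72, adjusted p = 4.25e-05), and its binding protein follistatin, Fst, differed by 2.25. Among 96 orphan and adhesion GPCR genes 8 were higher and 16 lower. Gprc5b, an orphan receptor, read 3.92, 3.89 and 4.80 against 8.50, 8.01 and 7.75 (3.88, adjusted p = 0.000137), and the adhesion receptor Adgrg2 and the orphan Gpr146 differed by 3.19 and 3.16. The vasopressin receptor Avpr1a differed by 3.20. Axon guidance genes were divided, with 11 of 74 higher, among them Sema6d (3.26) and Slit2 (3.21), and 13 lower.

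Potassium channel genes had 14 of 80 lower (17.5%, near the 15.2% of all genes) and 1 higher. Without organoid C the counts were 9 and 2. Over the alternatives that kept all 80 genes, the lower ones numbered 5 to 40. Kcnh1, a voltage-gated channel, read 8.76, 7.85 and 8.83 in LD cells and 6.21, 5.26 and 6.29 in organoids (difference -2.56, adjusted p = 0.000825). Aqp3, a channel for water and glycerol, read 10.05, 9.81 and 8.76 against 4.47, 4.66 and 5.10 (-4.80, adjusted p = 1.82e-05), and Aqp5, the water channel of secretory glands, differed by 1.18. These were the only aquaporins of 11 that passed. Trpm6, a magnesium channel, read 9.70, 9.61 and 9.54 against 6.51, 6.49 and 7.13 (-2.91, adjusted p = 3.72e-05). Abca1, which exports cholesterol, read 9.86, 8.52 and 9.35 against 11.75, 11.63 and 10.92 (2.19). It was 1 of 3 ABC transporter genes of 45 that were higher, while 8 were lower.

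Regulators of chromatin and of protein turnover were higher more often than lower, as all genes were (22.1% and 15.2%), though not at a common median. Of 158 chromatin modifier genes 46 were higher and 31 lower (29.1% and 19.6%, median 0.09), or 36 and 58 at a common median. Cbx6, a reader of Polycomb marks, read 6.87, 7.48 and 7.11 in LD cells and 10.65, 10.95 and 10.70 in organoids (difference 3.61, adjusted p = 3.95e-06) at a probe set that may detect other transcripts. Kdm6b, which removes the Polycomb mark from histone H3, read 11.21, 11.31 and 11.01 against 8.51, 8.59 and 8.91 (-2.51, adjusted p = 1.51e-05). Of 124 TRIM and F-box genes for ubiquitin ligases 38 were higher and 12 lower (30.6% and 9.68%), or 27 and 39 at a common median. Trim14, an adaptor of antiviral signals, read 5.52, 5.69 and 5.91 against 9.93, 10.35 and 9.64, a 19.2-fold difference (adjusted p = 6.66e-06). In homeobox genes outside the Hox clusters 14 of 125 were higher and 15 lower. Irx1 read 9.02, 8.23 and 8.63 against 10.98, 11.18 and 10.91 (2.40), and Mkx, a regulator of tendon, read 2.66, 2.45 and 2.95 against 6.58, 5.46 and 5.28 (3.09, adjusted p = 0.0032).

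Genes of which little is known were measured in large numbers, many of them close to the background of the array. Of 1295 genes with RIKEN clone names 177 were higher and 77 lower, and 695 lay under the lower quartile on all 3 LD arrays. Of 455 predicted genes (Gm) 39 were higher and 34 lower, of 153 Fam genes 35 and 24, of 216 Tmem genes 62 and 22, and of 118 Ccdc genes 35 and 14. At a common median the lower genes outnumbered the higher ones in each of these lists. The 12 largest changes in each direction are plotted by array.

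**Figure D5:**
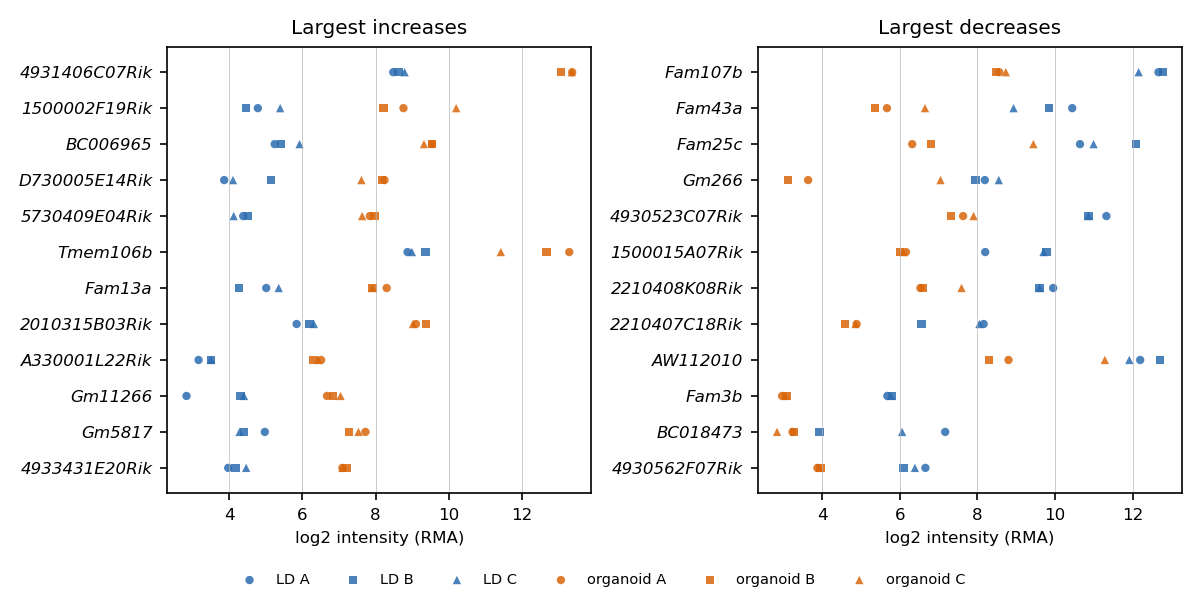
Log2 intensity (RMA) on each array of LD cells (blue) and MaSC organoids (orange) for the 12 largest increases (left) and the 12 largest decreases (right) among genes named only by clone, prediction or family. The arrays of 4931406C07Rik lie at 8.48 to 8.79 in LD cells and 13.07 to 13.37 in organoids, while organoid C departs from the other organoids in Tmem106b, Fam25c, Gm266 and AW112010.

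The largest increase of these was that of 4931406C07Rik, which read 8.48, 8.62 and 8.79 in LD cells and 13.37, 13.07 and 13.36 in organoids, a 24.9-fold difference (4.64, SE 0.12, adjusted p = 2.94e-07), with 5.13 at its other probe set. It was also among the 20 largest increases of all. Tmem106b, a lysosomal membrane protein linked to dementia, read 8.87, 9.36 and 8.99 against 13.29, 12.67 and 11.42 (3.39, adjusted p = 0.00217), and all its 4 probe sets gave 1.27 or more. 5730409E04Rik read 4.38, 4.51 and 4.12 against 7.84, 7.97 and 7.63 (3.48, adjusted p = 2.56e-06). Fam13a, a gene linked to lung disease, read 5.01, 4.26 and 5.35 against 8.30, 7.91 and 7.91. Less certain were BC006965 and 1500002F19Rik, whose other probe sets gave -1.82 and -0.03 beside differences of 3.94 and 4.18.

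Of the decreases, Fam107b read 12.66, 12.77 and 12.15 in LD cells and 8.56, 8.48 and 8.73 in organoids, a 15.3-fold difference (-3.94, adjusted p = 1.23e-05), at a probe set that may detect other transcripts, and its 3 probe sets gave -4.16 to -3.69. Its promoter is among those shown above. 4930523C07Rik was lower at each of its 5 probe sets, by -4.45 to -2.85, and read 11.32, 10.86 and 10.86 against 7.63, 7.32 and 7.90. Fam43a read 10.44, 9.85 and 8.93 against 5.67, 5.37 and 6.65 (-3.84, adjusted p = 0.000176). For 3 others the call rested on single arrays. AW112010 read 8.80, 8.29 and 11.28 in organoids (adjusted p = 0.0174, and 0.0652 at most when an array was left out), Gm266 read 3.64, 3.12 and 7.05 (0.0446, at most 0.147) and Fam25c read 6.32, 6.81 and 9.44 (0.013, at most 0.0511). In all 3 organoid C lay closest to the LD cells.

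Several families that serve other tissues had few calls. Of 75 olfactory, vomeronasal and taste receptor genes 1 was higher and 3 lower, of 33 germ cell genes 1 and 1, of 43 sarcomere genes 0 and 4, and of 126 synaptic genes 4 and 12, all below the shares of all genes in the higher direction. Many of these genes were close to the background: 60 of the receptor, 22 of the germ cell, 19 of the sarcomere and 57 of the synaptic genes lay under the lower quartile on all 3 LD arrays. In the lowest tertile of mean level only 2.49% of all genes were higher and 9.38% lower. In the neural crest, glial and melanocyte list 8 of 28 were higher and 6 lower (28.6% and 21.4%), near the shares of all genes, or 8 and 3 without organoid C. Besides Cdh19 it contained Mitf, the factor of melanocytes and of lysosome genes, at 5.35, 4.39 and 4.84 against 7.24, 7.19 and 6.77 (difference 2.21, adjusted p = 0.000217), with 0.17 at its other probe set.

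The yMaSC organoids were grown in the same medium from converted LD cells and are compared with the same LD arrays, so their differences are not separate evidence. Set beside the values above, their differences from LD cells were 6.25 for Chl1 (6.30 in MaSC organoids), 4.39 for Ttc30a1 (4.45), 4.25 for Pipox (4.81), 4.50 for 4931406C07Rik (4.64), -6.26 for Nipal1 (-6.40) and -2.30 for Arg1 (-3.92). The median level of the zinc finger genes on the yMaSC organoid arrays was 6.88, 6.92 and 6.74, and 228 of the 392 were higher than in LD cells and 36 lower (58.2% and 9.18%, against 21.6% and 14.3% of all genes in that comparison).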

How the data were processed

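RNA was isolated with Trizol, made into biotinylated cRNA and hybridized to Affymetrix Mouse430_2 arrays. The authors deposited log2 values from RMA, which corrects background, brings arrays to a common distribution and summarizes probes (version: not given in the sources used here). Its table held 0 columns of other samples. Of 45101 probe sets, 34958 had 1 gene in GEO's platform annotation, 932 several and 9211 none. Where a gene had several probe sets (9012 of 18194 genes), the 1 that was brightest on average over the 9 arrays stood for it, dim genes were kept, and 1587 genes were read from _s_at or _x_at probe sets, which may detect other transcripts. With R 4.3.3 and limma 3.58.1, the 3 group means were fitted over 9 arrays, and MaSC organoids were compared with LD cells (eBayes, Benjamini-Hochberg over all genes, adjusted p under 0.05). The labels call the arrays biological replicas without saying what was replicated, so p values measure the spread between these samples, and the number of arrays limits the precision. In simulated data of 18194 genes, 200 were changed by 1 log2 and 200 by 2 log2, and 72.5% and 92% of these were called. Far more genes passed in the data themselves (37.3%), so these shares need not hold there.

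The 96 lists and the members were chosen with earlier results of these data known, and 15 lists of complexes were written after the values were seen. The rule for naming genes took the 20 largest increases and 20 largest decreases without overlap between groups, outside lineage and other excluded families; up to 4 members of each list in each direction; the 12 largest changes in each direction among little-known genes; the 20 largest switched on and switched off; and members of marker lists or of lists of 12 or fewer. Promoters are those of RefSeq on GRCm38.p6, searched on both strands. Alternatives were the letter as a fixed or random block, other summaries of probe sets, filters, scalings, priors, array weights, thresholds and each array left out in turn. Letters did not pair LD with MaSC organoid arrays: deviations of same-lettered arrays correlated at r = 0.012, 0.045 and 0.026. Pairing of MaSC with yMaSC organoid arrays was not tested. In both kinds of organoid, array C had the highest mean of basal markers (8.86 and 8.25). The yMaSC organoid arrays may thus not be independent in the estimate of the spread. With LD and MaSC organoid arrays alone, 3823 genes were higher and 2421 lower.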

Additional observations from a re-analysis of the deposited data

How the results depend on the processing

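No gene called in one direction was called in the other, except 8 higher and 3 lower genes when all probe sets were averaged and 3 and 1 without _s_at and _x_at probe sets. The 4028 higher genes ranged from 3316 to 4133 when single arrays were left out, the 2762 lower ones from 2016 to 2793, the 12 switched on from 12 to 23 (without LD B) and the 29 switched off from 29 to 50 (without LD C). Lower genes numbered 6992 at a common median, 1729 among genes above the median of mean values and 1664 at an adjusted p under 0.01, where 2899 were higher. With a 2-fold limit 2037 were higher and 1218 lower. With the upper quartile in place of the median, 1 gene was switched on and 2 off. With a lower limit of silence, at the first decile of an array, the counts were 1 and 3, and with a higher one, at the first tertile, 38 and 50. Lists with more higher than lower genes fell from 40 to 7 of 96 at a common median. With the letter as a block 4251 genes were higher and 2925 lower, or 4218 and 3012 as a random block. Of 678 named genes that passed, 467 did so in every setting. Of 380 with more than 1 probe set, 325 had all probe sets in the same direction. The difference changed sign for Cacna1d (-0.27), Aars (0.02) and Mt1 (0.88) without _s_at and _x_at probe sets and for Ctsb (-0.02) with the mean of all probe sets; the cause was not tested. Silence is a rank within an array and not a detection call, so a gene under the lower quartile may still be expressed.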
